A study of Mus musculus with 8 samples.

Results

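Protein phosphatases that act on serine and threonine, together with the casein kinases, were examined in the tips of secondary alveolar septa and in whole lung. The members were all probe sets whose annotation gives exactly 1 gene symbol and whose symbol begins with Ppp1 to Ppp6, Ppm1, Csnk1 or Csnk2. This rule found 57 probe sets of 41 genes among 12422 probe sets that are not controls. Of these, 11 probe sets belonged to catalytic subunits of the PPP enzymes and 24 to their regulatory subunits. A further 7 belonged to PP2C phosphatases, 8 to casein kinase 1 and 7 to casein kinase 2. The symbol rule itself uses no measured value, but the family was chosen by the differences that Ppp4c and Csnk1e had shown between tips and lung in earlier results of the same arrays. The values of those genes are therefore given as a description, with no test, and counts that include them support nothing.

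Both groups came from C57/Bl6 mice at postnatal day 6, with no genetic change or treatment named in the labels. The first group was septal tips, 10000 of them isolated from frozen lung sections of many neonates by laser capture, in which selected regions are removed under a microscope. The second was whole lung of pooled neonates. The work was done in experiment 1 and again in experiment 2 with other litters, and each of the 4 RNA samples went onto 2 Affymetrix arrays run on separate occasions, which gives 8 arrays. Each RNA is a pool of animals, so the spread between the 2 RNA samples of a group is a spread between pools and not between mice. The groups follow the sample titles, because another label of the tip samples names whole lung. Parallel amplification of both RNAs is stated in the study's design, while the sample labels write an amplification step for all tip arrays and for only 1 lung array.

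PPP phosphatases work as complexes, in which a small set of catalytic subunits is directed to substrates by many regulatory subunits. PP2A pairs its catalytic subunit with a scaffold and an exchangeable regulatory subunit, PP4 and PP6 are its close relatives, and calcineurin is switched on by calcium and calmodulin. PP2C enzymes need metal ions and mostly act without regulatory subunits. Casein kinase 1 phosphorylates beta-catenin, Dishevelled and the period proteins of the clock, and casein kinase 2 is a broadly active tetramer. In lung, myosin phosphatase, a PP1 complex, relaxes smooth muscle.

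The values are array signals on a linear scale. The median signal was 786.3 to 923 on tip arrays and 501 to 571.4 on lung arrays, while the 95th percentile was 6127 to 6805 on tip arrays and 8868 to 9155 on lung arrays. Background, taken as the 95th percentile of 19 bacterial and yeast control probe sets, was 486.6 to 1244 on tip arrays and 314.1 to 568.1 on lung arrays. Of the 57 members, 34 to 43 exceeded it on tip arrays and 38 to 41 on lung arrays. The ratio of the 3′ to the 5′ Gapdh probe set, a measure of RNA length, was 4.18 to 12.78 on tip arrays and 1.95 to 5.49 on lung arrays. The same ratio for Actb was 22.97 to 139.25 on tip arrays and 38.8 to 104.29 on lung arrays, with the groups overlapping. Summed signals of the type II cell markers Sftpc and Sftpb were 97844 to 113709 on tip arrays and 21875 to 37200 on lung arrays. Those of 3 type I cell markers were 18200 to 28185 on tip arrays and 39720 to 49989 on lung arrays, and those of 3 airway markers were 32993 to 83794 on tip arrays and 14524 to 24475 on lung arrays. For 5 myofibroblast and smooth muscle markers the sums were 27627 to 41136 on tip arrays and 14597 to 39475 on lung arrays. Although these sums overlapped, 4 of the 5 genes were higher in tips and none was lower in the fit described below. Sums were higher on tip arrays without overlap for 5 endothelial markers, at 35096 to 41025 on tip arrays and 24504 to 31225 on lung arrays. The same held for 5 macrophage markers, at 19561 to 27857 on tip arrays and 13297 to 17887 on lung arrays, and for 4 lymphocyte markers, at 2385 to 4974 on tip arrays and 944 to 1949 on lung arrays. Gene by gene in that fit, 2 endothelial markers were higher and 1 was lower. No macrophage marker passed, and 1 lymphocyte marker was higher. The macrophage markers Marco and Adgre1 and the T cell marker Cd3e were under background on all tip arrays. In bulk RNA such as this, fewer cells of a type and less RNA per cell cannot be told apart. The part of cell makeup, RNA length and amplification in the differences below was not tested.

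Of the 57 members, 44 were bright enough to be tested in a limma fit over 7453 probe sets. Of these, 12 probe sets of 11 genes, Ppp4c and Csnk1e among them, were higher in tips and 8 probe sets of 7 genes were lower in tips at an adjusted p under 0.05. The same fit placed 14.5% of all probe sets higher and 13.7% lower in tips. Because the family was picked with this contrast in view, nothing is read from the difference between the members' counts and those shares. The median log2 difference of tips minus lung was -0.04 over the 44 tested members and 0.35 over all probe sets tested. All differences below are on the scale of log2(signal + 150.09), which understates changes of dim probe sets, and folds are taken from that scale. The 24 members that did not pass had differences between -0.90 and 1.10 and adjusted p between 0.0715 and 0.991 (limma).

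Direction and brightness went together, in the members and on the arrays as a whole. The tested probe sets were divided by mean signal over all arrays into 3 sets of nearly equal size. Among the 18 members in the brightest set, 7 were lower and 2 were higher in tips. In that set, 28.1% of all probe sets were lower and 14.7% higher. Among the 12 members in the dimmest set none was lower and 4, Csnk1e among them, were higher, against 3.94% lower and 11.5% higher of all probe sets there. The split and the filter for brightness both use the mean over tips and lung together. These 4 were under background on 2 to 4 lung arrays, so their tip values helped them pass. Nothing is read from their direction. Of the 14 members in the middle set, 1 was lower and 6, Ppp4c among them, were higher, where all probe sets gave 9.14% lower and 17.5% higher.

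Array by array, all 4 tip arrays lay above all 4 lung arrays for 18 of the 57 members, where 22.1% of all probe sets did. All 4 tip arrays lay below all 4 lung arrays for 10 members, where 11.2% of all probe sets did. The 8 members called lower exceeded background on every lung array, with lung means from 2982 to 47937. Of the 12 called higher, 7 exceeded background on every lung array and 10 on every tip array. The calls in the higher direction depended on the scaling and on dim values. With quantile normalisation 3 members were higher and 7 lower, and with median centring 2 were higher and 12 lower. The whole array moved too: of all 7453 probe sets tested, 1084 were higher and 1022 lower as scaled here. Those counts were 608 and 1020 with quantile normalisation, and 271 and 1512 with median centring. Without Ppp4c and Csnk1e, 10 members were higher as scaled here and 2 with quantile normalisation, and with median centring no other member was. Leaving out the lung RNA of experiment 1 left 2 higher and 2 lower, and leaving out that of experiment 2 left 2 higher and 4 lower. Leaving out the tip RNA of experiment 1 gave 10 higher and 9 lower, and leaving out that of experiment 2 gave 15 higher and 11 lower.

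**Figure D1:**
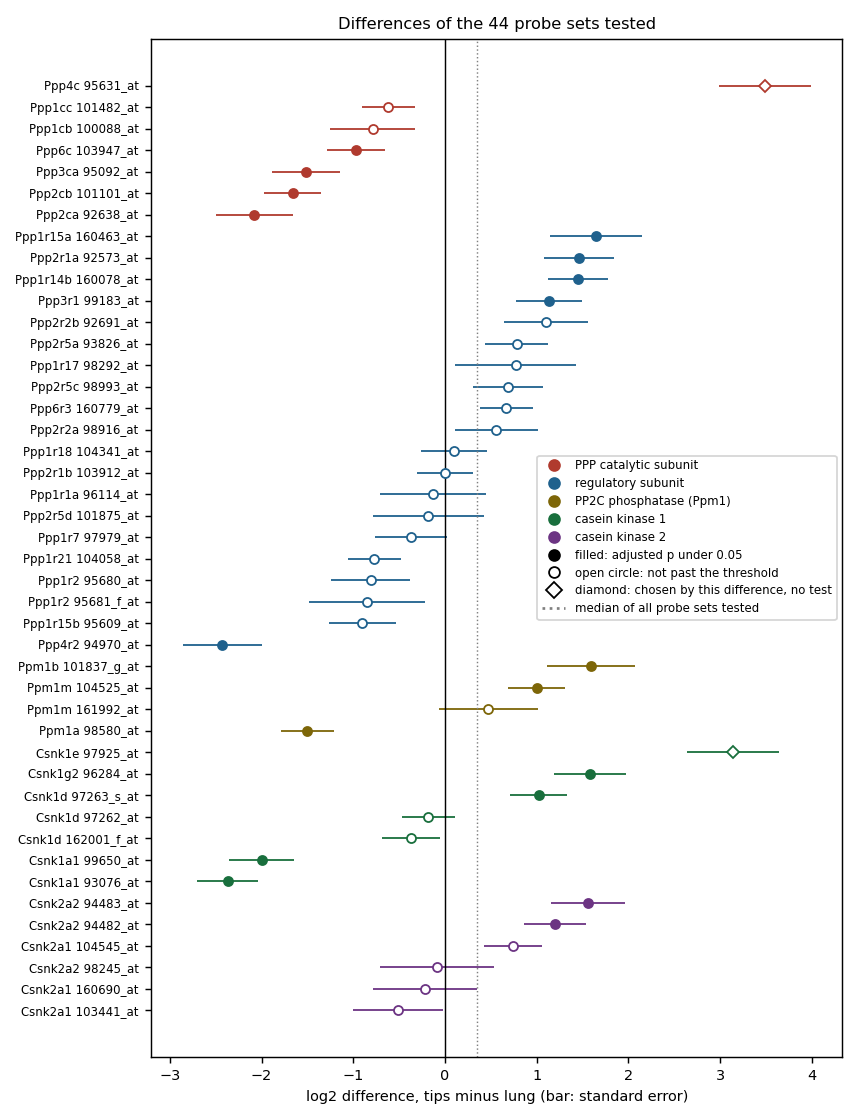
Log2 difference of septal tips minus whole lung for the 44 tested member probe sets, with bars of 1 standard error from the limma fit, grouped by enzyme class, with filled circles for those past the threshold, open diamonds for Ppp4c and Csnk1e, which chose the family and carry no test, and a dotted line at the median of all probe sets tested, 0.35. Members past the threshold lie on both sides of 0, the diamonds lie at 3.49 and 3.14, and Ppp4r2 and Csnk1a1 lie furthest to the left at -2.43 and -2.37.

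Of 7 tested probe sets of PPP catalytic subunits, Ppp2ca, Ppp2cb, Ppp3ca and Ppp6c were lower in tips, and Ppp4c is described without a test. Their median log2 difference was -0.97, against 0.35 over all probe sets, of which 13.7% were lower. Of the 4 lower genes all but Ppp2ca were in the brightest set, where 28.1% of all probe sets were lower, so the count is not read as a trait of catalytic subunits. The genes of both PP2A catalytic isoforms moved the same way. Ppp2ca, the alpha isoform, had signals of 545 and 282 in tips of experiment 1 and 1066 and 486 in tips of experiment 2, against 4609 and 2835 and then 2981 and 1503 in lung. Every tip array lay below every lung array, and 3 of the tip arrays were under background. The difference was -2.08 ± 0.42 (SE, 2 RNA samples per group, limma adjusted p = 0.00817), a signal 4.22-fold higher in lung.

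Ppp2cb, the beta isoform, was above background on all arrays. It had 3216, 2932, 3126 and 2413 in tips, against 10931, 11961, 7577 and 8304 in lung. The groups were far apart, at 2922 ± 215 in tips and 9693 ± 2479 in lung (SD, n = 2 RNA samples each), and the log2 difference was -1.66 ± 0.31 (SE, limma adjusted p = 0.00617).

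Ppp3ca, the alpha catalytic subunit of calcineurin, which dephosphorylates NFAT, had 5848, 4448, 8217 and 5488 in tips, against 14330, 10395, 25944 and 22017 in lung. No tip array reached the lowest lung array. The log2 difference was -1.52 ± 0.37 (SE, limma adjusted p = 0.0183), and the call was lost with quantile normalisation, with cyclic loess, with a floor at the highest background and without the lung RNA of experiment 2. Calcineurin's other catalytic genes, Ppp3cb and Ppp3cc, were too dim to be tested, with differences of 0.60 and 0.15.

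Ppp6c, the catalytic subunit of PP6, had 1405, 1597, 2621 and 1471 in tips, against 4317, 3389, 3380 and 3106 in lung. Its groups did not overlap, yet the difference of -0.97 ± 0.32 (SE, limma adjusted p = 0.0484) stood just inside the threshold. It was lost under 10 of 19 alternatives. A second Ppp6c probe set was too dim to be tested and differed by -0.48.

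Ppp4c, the catalytic subunit of PP4, ran the other way. Its signals were 6083, 4438, 5315 and 2220 in tips, against 100, 81.5, 976 and 204 in lung. The lowest tip array was above the highest lung array, and 3 of the 4 lung arrays were under background. The means were 4514 ± 1056 in tips and 340.4 ± 353 in lung (SD, n = 2 RNA samples each), and the log2 difference was 4.47 in experiment 1 and 2.51 in experiment 2. These values chose the family and are a description, and the adjusted p of Ppp4c is not used.

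The PP1 catalytic genes did not pass the threshold. Ppp1cb, the isoform of myosin phosphatase, had 1885 and 2482 in tips of experiment 1 against 10425 and 6585 in lung, but 5406 and 4589 in tips of experiment 2 against 5469 and 3033 in lung. Its difference was -1.87 in experiment 1 and 0.28 in experiment 2, with a limma adjusted p of 0.208. Ppp1cc had 4729 to 6236 in tips and 6429 to 9243 in lung, without overlap, at a difference of -0.62 ± 0.29 (SE, limma adjusted p = 0.133). Ppp5c, the PP5 gene, was not tested and lay under background on all 8 arrays, though its lowest tip array, at 149, was above its highest lung array, at 70.8.

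For PP4 and for PP2A, a catalytic gene and a gene for one of its partner subunits lay on opposite sides of 0. These were Ppp4c above and Ppp4r2 below, and Ppp2ca below and the scaffold Ppp2r1a above. The difference of Ppp4c chose the family, so nothing is read from the pattern. The Ppp2r1a call was lost under 6 of 19 alternatives, quantile normalisation and median centring among them. The other scaffold gene, Ppp2r1b, did not pass the threshold. The promoters of Ppp4c, Ppp4r2, Ppp2ca and Ppp2r1a are shown because the probe sets of each pair differ in direction. Each is 300 bases in GRCm38.p6 from RefSeq, 250 before to 50 after the annotated start, 5′ to 3′ on the gene's strand. Ppp4c lies at chr7:126792498-126792797 on the minus strand and is the first of 2 starts in the table. Ppp4r2 lies at chr6:100833388-100833687, Ppp2ca at chr11:52098574-52098873 and Ppp2r1a at chr17:20945204-20945503, all on the plus strand. Capitals mark matches on either strand to the motifs described below the sequences.
Ppp4c: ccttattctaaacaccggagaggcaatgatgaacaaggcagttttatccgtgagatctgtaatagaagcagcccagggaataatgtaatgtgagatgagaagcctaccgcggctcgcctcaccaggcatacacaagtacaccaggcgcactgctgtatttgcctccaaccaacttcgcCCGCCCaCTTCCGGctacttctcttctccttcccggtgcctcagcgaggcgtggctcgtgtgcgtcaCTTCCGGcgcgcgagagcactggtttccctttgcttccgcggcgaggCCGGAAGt
Ppp4r2: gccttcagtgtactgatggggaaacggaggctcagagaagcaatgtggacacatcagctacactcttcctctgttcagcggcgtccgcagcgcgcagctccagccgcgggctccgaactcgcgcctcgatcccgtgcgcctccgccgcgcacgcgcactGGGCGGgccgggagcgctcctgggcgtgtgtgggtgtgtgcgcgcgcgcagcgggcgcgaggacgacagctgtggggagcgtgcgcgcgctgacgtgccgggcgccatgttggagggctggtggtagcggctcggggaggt
Ppp2ca: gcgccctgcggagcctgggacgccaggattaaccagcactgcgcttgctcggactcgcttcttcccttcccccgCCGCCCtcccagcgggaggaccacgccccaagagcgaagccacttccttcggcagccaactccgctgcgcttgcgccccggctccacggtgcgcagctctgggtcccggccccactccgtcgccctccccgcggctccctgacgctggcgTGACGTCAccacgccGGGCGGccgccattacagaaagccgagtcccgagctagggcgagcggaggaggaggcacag
Ppp2r1a: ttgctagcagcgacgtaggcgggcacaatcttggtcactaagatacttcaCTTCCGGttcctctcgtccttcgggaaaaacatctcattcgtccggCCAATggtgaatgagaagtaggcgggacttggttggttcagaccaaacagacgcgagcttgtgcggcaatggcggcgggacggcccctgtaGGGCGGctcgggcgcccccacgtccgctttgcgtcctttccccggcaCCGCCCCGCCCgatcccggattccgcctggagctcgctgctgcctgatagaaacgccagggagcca

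The motifs searched were the GC box GGGCGG, the CCAAT box CCAAT, the TATA box TATAAA, the cAMP response element TGACGTCA and the ETS core CTTCCGG, chosen with these promoters in view. All 4 promoters held a GC box, with 1 match in Ppp4c, 1 in Ppp4r2, 2 in Ppp2ca and 3 in Ppp2r1a, and none held a TATA box. Ppp4c held 3 ETS cores and Ppp2r1a held 1, together with 1 CCAAT box. Ppp2ca held 1 cAMP response element. Of the 41 member genes, 31 had a promoter in the table, and 26 of these held a GC box, against 35.9% of 27025 promoters. The CCAAT box was in 10 of the 31, against 37.9% of all. The TATA box, the cAMP response element and the ETS core were in 4 each, against 14.2%, 1.88% and 9.12% of all promoters. The promoters shown are among the 31, and the 27025 were not limited to genes on the array. Nothing is therefore read from the difference between these shares. These matches describe letters in a window and are not binding sites.

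Of 20 tested probe sets of regulatory subunits, 4 were higher and 1 was lower in tips, that is 20% and 5%, against 14.5% and 13.7% of all probe sets. Their median log2 difference was 0.33, against 0.35 over all. Ppp4r2, which directs PP4 to substrates in DNA repair, was the member furthest below 0 and the only regulatory subunit called lower. It had 654, 459, 1166 and 1416 in tips, against 6725, 6860, 4140 and 3925 in lung. The highest tip array was well under the lowest lung array, and 2 tip arrays were under background. The difference was -2.43 ± 0.43 (SE, limma adjusted p = 0.00508), a signal 5.38-fold higher in lung, and it was lost only without the lung RNA of experiment 1 among the alternatives run.

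The PP2A scaffold Ppp2r1a had 2875, 4361, 2538 and 3138 in tips, against 1193, 1718, 864 and 668 in lung. All tip arrays were above all lung arrays, and the log2 difference was 1.46 ± 0.38 (SE, limma adjusted p = 0.0213). The call was lost under 6 of 19 alternatives, quantile normalisation and median centring among them. The other scaffold gene, Ppp2r1b, averaged 2330 ± 140 in tips and 2288 ± 147 in lung (SD, n = 2 RNA samples each), a difference under the spread between arrays.

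None of the exchangeable PP2A subunits passed the threshold. Ppp2r2b and Ppp2r5a had tip arrays entirely above lung arrays, with differences of 1.10 ± 0.46 and 0.78 ± 0.34 (SE) and limma adjusted p of 0.0998 and 0.111. Ppp2r2a differed by 0.56, Ppp2r5c by 0.69 and Ppp2r5d by -0.18. Ppp6r3, a PP6 subunit, had 7034 to 9527 in tips and 4756 to 5916 in lung, without overlap, at a limma adjusted p of 0.105.

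Ppp3r1, the calcium-binding subunit of calcineurin, lay on the opposite side of 0 from Ppp3ca. It had 2904, 3525, 1426 and 3674 in tips, against 1346, 1534, 1065 and 823 in lung. The lowest tip array fell inside the lung range, and the difference of 1.13 ± 0.36 (SE, limma adjusted p = 0.0451) was lost under 11 of 19 alternatives.

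Of 10 tested probe sets of PP1 regulators, 2 were higher in tips and none was lower, against 14.5% and 13.7% of all probe sets. Ppp1r14b, an inhibitor of PP1 and of myosin phosphatase, had 3957, 2265, 2346 and 3253 in tips, against 1227, 960, 1054 and 671 in lung. The groups did not overlap and every array was above background, at 2955 ± 220 in tips and 977.9 ± 163 in lung (SD, n = 2 RNA samples each). The log2 difference was 1.45 ± 0.33 (SE, limma adjusted p = 0.0140), and the call was lost under 4 of 19 alternatives, median centring among them.

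Ppp1r15a, a stress-induced subunit that directs PP1 to the initiation factor eIF2 alpha, had 589, 1664, 2298 and 1568 in tips, against 105, 352, 786 and 335 in lung. The groups overlapped by 1 tip array and 1 lung array, with a difference of 1.65 ± 0.50 (SE, limma adjusted p = 0.0374) that was lost under each of quantile normalisation, median centring and cyclic loess. Its constitutive relative Ppp1r15b differed by -0.90 ± 0.37 (SE, limma adjusted p = 0.0918).

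The other PP1 regulators did not pass. Ppp1r2, inhibitor 2, gave -0.81 and -0.85 with its 2 probe sets, and Ppp1r21 gave -0.77 with tip arrays entirely below lung arrays. Ppp1r7 gave -0.37, Ppp1r1a -0.13 and Ppp1r18 0.10. Ppp1r17 gave 0.77 with 1 probe set and 0.89 with another that was not tested. Both probe sets of Ppp1r12c, a targeting subunit of myosin phosphatase, were under background on every array, and Ppp1r3c was not tested either.

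**Figure D2:**
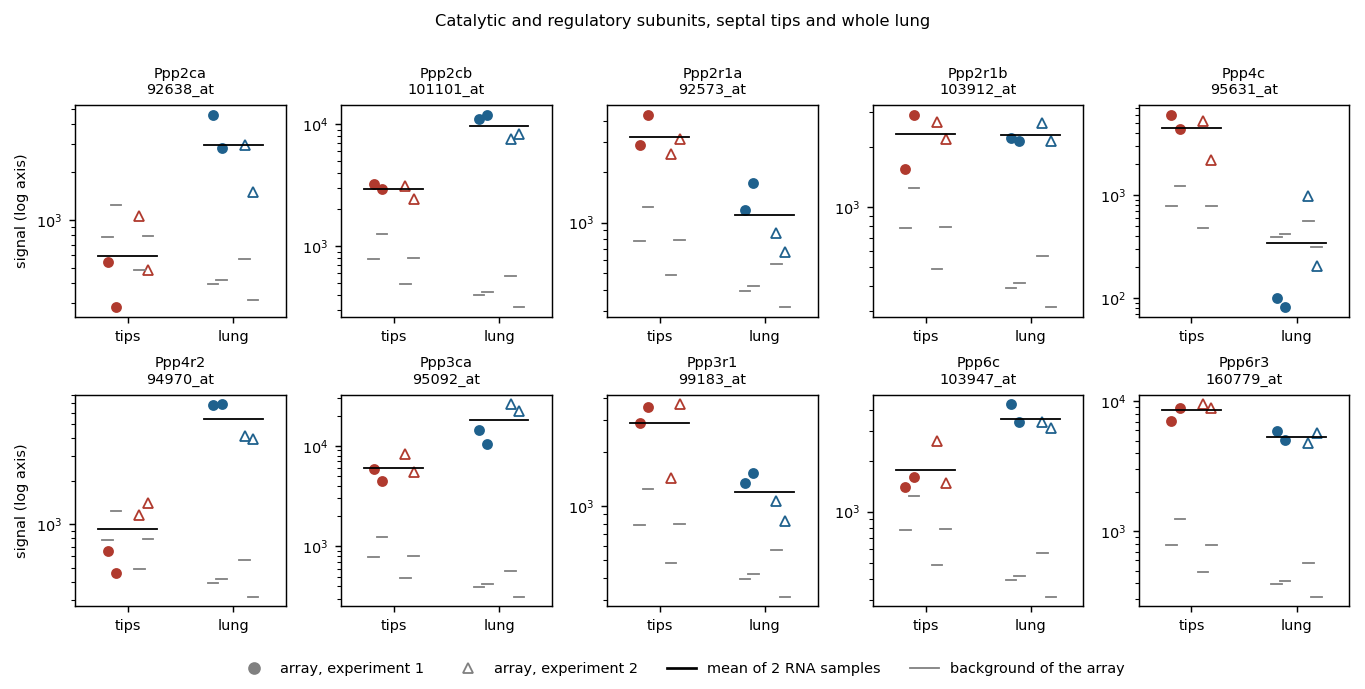
Signal of PPP catalytic and regulatory subunits on each array, on a log axis, with septal tips left of whole lung, filled circles for experiment 1, open triangles for experiment 2, a black line at the mean of the RNA samples and grey ticks at each array's background. Ppp4c and Ppp2r1a are higher in tips and Ppp4r2, Ppp2ca and Ppp2cb lower, without overlap of arrays, while 1 tip array of Ppp3r1 lies inside the lung range.

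Among the PP2C phosphatases, 2 probe sets were higher and 1 was lower of 4 tested, against 14.5% and 13.7% of all probe sets. The lower one, Ppm1a, was in the brightest set, where 28.1% of all probe sets were lower. Ppm1a, which acts on stress kinases and SMAD proteins, had 2122, 2146, 2176 and 2183 in tips, against 5246, 6552, 5740 and 8432 in lung. The tip arrays were almost equal, at 2156 ± 32.2, and lung averaged 6492 ± 840 (SD, n = 2 RNA samples each). The log2 difference was -1.50 ± 0.29 (SE, limma adjusted p = 0.00740) and was lost only when a lung RNA was left out.

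Ppm1m had 4998, 5608, 3459 and 4698 in tips, against 1787, 2758, 2226 and 2240 in lung, without overlap. The log2 difference of this probe set was 1.00 ± 0.31 (SE, limma adjusted p = 0.0387), while the other Ppm1m probe set gave 0.47 ± 0.54. Ppm1b, a close relative of Ppm1a, had 1477, 663, 939 and 613 in tips, against 260, 83.8, 153 and 316 in lung with the probe set that was tested. Here 2 tip arrays and 3 lung arrays were under background, and the difference was 1.59 ± 0.48 (SE, limma adjusted p = 0.0378). The other Ppm1b probe sets gave 0.86 and 0.53, untested, and Ppm1g was under background on all 8 arrays. The Ppm1m call was lost under 10 of 19 alternatives and the Ppm1b call under 10 of the 16 in which it was tested, both of them with median centring and with either single array.

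Of 7 tested casein kinase 1 probe sets, 3 were higher, Csnk1e among them, and 2 lower, against 14.5% and 13.7% of all probe sets. Both lower probe sets were of Csnk1a1 and in the brightest set, where 28.1% of all probe sets were lower. Nothing is therefore read from these counts. Csnk1a1, the alpha isoform that primes beta-catenin for degradation, was measured by 2 probe sets. The brighter had 9610, 6096, 10825 and 10651 in tips, against 45446, 58135, 38339 and 49828 in lung, a difference of -2.37 ± 0.33 (SE, limma adjusted p = 0.00211). It was the only member called lower that held under all 19 alternatives. The second had 5796, 4604, 9666 and 8614 in tips, against 29712, 30599, 25956 and 25881 in lung, a difference of -2.0 ± 0.35 (SE, limma adjusted p = 0.00499). With both, the signal was lower in every tip array than in any lung array, and no array was near background.

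Csnk1e, the epsilon isoform, had 2140, 2029, 1638 and 899 in tips, against 43.2, 90.4, 33.1 and 32.3 in lung. All lung arrays were under background and all tip arrays above it. With each lung array set to its own background, the signal was 3.09-fold higher in tips. With the highest background as a floor for every array, the log2 difference was 0.43, and with the next highest it was 0.89. The fitted log2 difference was 3.37 in experiment 1 and 2.91 in experiment 2, given without a test.

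The delta isoform Csnk1d, closest to epsilon in sequence, gave a mixed picture. One of its probe sets had 2077, 5610, 3082 and 5262 in tips, against 1854, 1884, 1557 and 1741 in lung, and was higher by 1.02 ± 0.31 (SE, limma adjusted p = 0.0372). Others gave -0.18 and -0.37, not past the threshold, and 0.69, not tested. Csnk1g2, a membrane-bound isoform, had 1287, 1674, 1402 and 1865 in tips, against 643, 245, 498 and 360 in lung. Its groups did not overlap, at 1.58 ± 0.39 (SE, limma adjusted p = 0.0183), with 2 lung arrays under background. The Csnk1d call was lost under 8 of 19 alternatives and the Csnk1g2 call under 7 of 18, both with quantile normalisation and with median centring.

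For casein kinase 2, 2 of 6 tested probe sets were higher and none was lower, against 14.5% and 13.7% of all probe sets. Both belonged to Csnk2a2, the alpha prime catalytic subunit. The first had 2996, 2770, 2291 and 2165 in tips, against 1027, 1227, 879 and 980 in lung, a difference of 1.20 ± 0.34 (SE, limma adjusted p = 0.0309). The second had 1592, 2851, 5364 and 3659 in tips, against 919, 856, 1102 and 936 in lung, a difference of 1.56 ± 0.40 (SE, limma adjusted p = 0.0214). Neither showed overlap between the groups. The first call was lost under 8 of 19 alternatives and the second under 6, both with quantile normalisation and with median centring.

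A further Csnk2a2 probe set did not follow them. It had 209 and 474 in tips of experiment 1 against 1294 and 909 in lung, and 1585 and 1857 in tips of experiment 2 against 749 and 573 in lung. Its differences were -1.38 and 1.21 in the 2 experiments, on opposite sides of 0. Csnk2a1, the alpha subunit, gave -0.51, 0.74 and -0.22 with tested probe sets and 0.67 with an untested one. The probe set at 0.74 had no overlap between groups, at a limma adjusted p of 0.108.

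**Figure D3:**
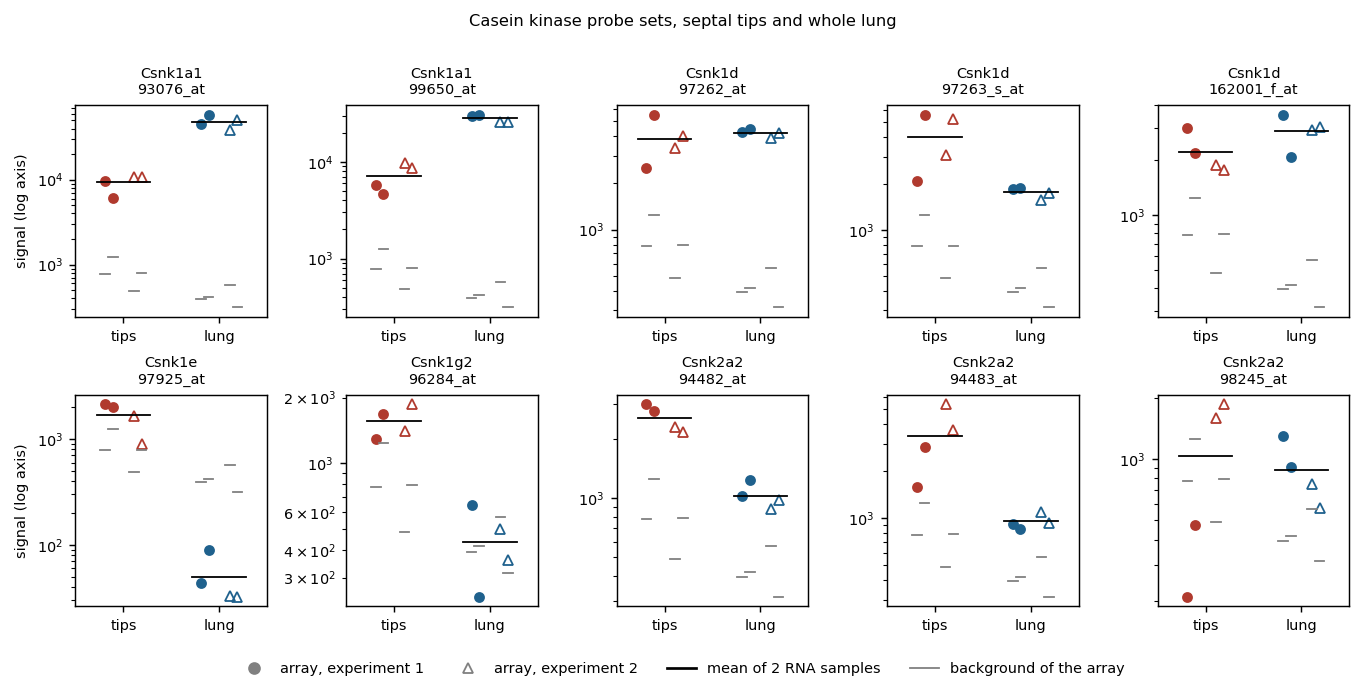
Signal of casein kinase probe sets on each array, on a log axis, drawn in the same way with septal tips left of whole lung, black lines at means and grey ticks at each array's background. Both Csnk1a1 probe sets are lower in tips, Csnk1e and Csnk1g2 are higher, and the probe sets of Csnk1d and Csnk2a2 differ from one another.

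Several probe sets were available for 10 member genes. In 7 of them all probe sets lay on the same side of 0, and in 3, Csnk1d, Csnk2a1 and Csnk2a2, they lay on both sides. A probe set reads a short stretch of a transcript, so probe sets of a gene can differ by transcript form. The cause of the disagreement in these genes was not tested.

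The 20 called members had the same sign in both experiments. Over all 44 tested members 35 did, or 79.5%, where 78.8% of all probe sets tested did. The median size of the difference between experiments was 0.59 for members and 0.58 for all. Arrays of the same RNA differed with an SD on the log2 scale of 0.75 and 0.67 over members in tips, and of 0.44 and 0.46 in lung.

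**Figure D4:**
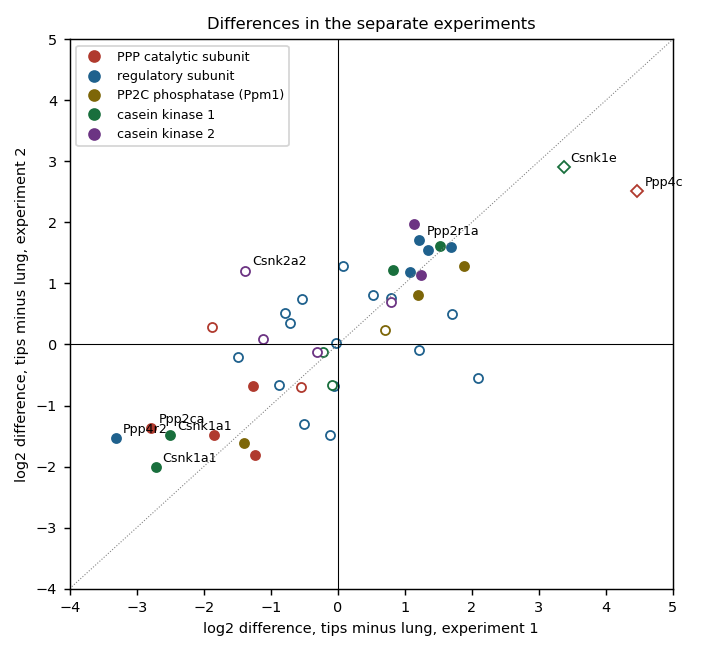
Log2 difference of septal tips minus whole lung in experiment 1 and experiment 2 for the 44 tested members, 1 point each, filled where past the threshold, as open diamonds for Ppp4c and Csnk1e, which carry no test, with a dotted line where both experiments are equal. Of these points, 35 have the same sign in both experiments, and Csnk2a2, at -1.38 and 1.21 with 1 probe set, is among those that do not.

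Genes that regulate or are acted on by these enzymes were counted in fixed lists with the same fit, each gene by its brightest probe set. Counted in that way, 14.7% of all 5642 genes were higher and 15.2% lower in tips, with a median difference of 0.31. Among regulators of PP2A-type phosphatases, 6 of 11 tested genes were lower and 1 was higher in tips, with a median difference of -1.17. Other probe sets of the lower genes mostly did not follow, with 0.59 and -1.12 for Set, 0.98 for Strn and -0.21 for Anp32e. Arpp19, an inhibitor of PP2A in mitosis, was lower, at -2.69 ± 0.41 (SE, limma adjusted p = 0.00297). It was under background on all tip arrays. With each tip array set to its own background, the signal was 2.65-fold lower in tips. The Arpp19 call was lost under 2 of 18 alternatives, a floor at the highest background among them, and its other probe set gave 0.41. Strn3, a striatin that serves as a PP2A regulatory subunit, had 889, 1071, 1800 and 1255 in tips, against 5888, 6074, 4332 and 4912 in lung. Its difference was -1.98 ± 0.34 (SE, limma adjusted p = 0.00442), with no overlap. Tiprl, which binds PP2A-type catalytic subunits, differed by -2.13 ± 0.45 (SE, limma adjusted p = 0.0102). On 3 of 4 tip arrays it was under background, and the call was lost with the highest floor, with array 1 of each RNA and without either lung RNA. Ptpa, an activator of PP2A, was higher by 0.96 ± 0.31 (SE, limma adjusted p = 0.0454), a call lost under 10 of 19 alternatives, quantile normalisation and median centring among them.

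Of 7 calcineurin partners and targets tested, 2 were higher and none was lower, with a median of -0.38. Fkbp1a, the FK506-binding protein, averaged 5408 ± 656 in tips and 2533 ± 269 in lung (SD, n = 2 RNA samples each, limma adjusted p = 0.0300). Nfatc2, an NFAT transcription factor, averaged 2440 ± 326 in tips and 1091 ± 301 in lung (SD, n = 2 RNA samples each, limma adjusted p = 0.0447). The Fkbp1a call was lost under 7 of 19 alternatives and the Nfatc2 call under 10, both of them with median centring.

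In the list for myosin light chain phosphorylation, which myosin phosphatase reverses, 3 of 7 tested genes were higher and 3 lower, with a median of 0.73. Myh9, Myl9 and Myh11, which encode myosin chains, were higher by 2.74, 1.22 and 1.32 (limma adjusted p = 0.00130, 0.0161 and 0.0176), and the Myl9 and Myh11 calls were lost with median centring. Mylk, the light chain kinase, and Rock1 and Rhoa, which act to inhibit myosin phosphatase, were lower, with differences of -2.50, -2.15 and -1.52 (limma adjusted p = 0.00508, 0.00561 and 0.00997). Other probe sets of Rock1 and Rhoa lay above 0, at 0.87 for Rock1 and at 1.36 and 0.72 for Rhoa.

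Of 11 casein kinase partners tested, 1 was higher and 2 were lower, with a median of -0.10. With the experiment as a replicate block 3 were lower, as the clock gene Cry1, at -0.90 ± 0.30 (SE), went past the threshold (limma adjusted p = 0.0357, against 0.0508 without the block). Ctnnb1, beta-catenin, had 5824, 6045, 15841 and 13454 in tips, against 53642, 57663, 62119 and 60331 in lung. The groups were far apart, with a difference of -2.63 ± 0.44 (SE, limma adjusted p = 0.00401). Ddx3x, an RNA helicase that binds casein kinase 1, was lower, at -1.40 ± 0.34 (SE, limma adjusted p = 0.0171), while its other probe sets gave 0.26 and -0.29. The clock gene Per3 was higher by 1.10 ± 0.35 (SE, limma adjusted p = 0.0435), a call lost under 12 of 19 alternatives, among them quantile normalisation, median centring and cyclic loess. Of 4 other serine/threonine phosphatases tested, Ctdsp2 was higher by 1.67 ± 0.31 (SE, limma adjusted p = 0.00594) and Ilkap was lower, at -2.30 ± 0.54 (SE, limma adjusted p = 0.0147), with 3 of 4 tip arrays under background.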

How the data were processed

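Whole lung and laser-captured septal tips were measured on Affymetrix MG-U74Av2 arrays. The deposited values are linear intensities, summarised per probe set. Per the submitters' processing notes, the authors used MAS5, with no version given. The values show that the authors had scaled each array: trimmed means, without 2% at each end, were 1500.6 to 1501.2. Each array was rescaled here to 1500.9, an offset of 150.09 was added and log2 taken. The 66 control probe sets and probe sets under the 40th percentile of mean log2 signal were left out, which left 7453. Each RNA was represented by the mean of its 2 arrays, and limma 3.58.1 (R 4.3.3) was fitted to 2 tip and 2 lung RNA samples with lmFit and eBayes with an intensity trend, two-sided, with Benjamini-Hochberg adjustment over all 7453 and a threshold of 0.05. The number of arrays limits the precision. Of 12488 probe sets, 10855 carried 1 symbol, 396 several and 1237 none. One probe set with several symbols that include a member was left out. The fit was tested on simulated data.

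The members, lists and motifs were chosen with earlier results of these data known. All catalytic subunits, casein kinases and PP2C genes are named, with the regulatory subunits that passed the threshold or have several probe sets; other regulatory subunits are named after their values were seen. Related genes are up to 3 per direction and list by smallest p. The split by brightness was added after the values were seen. Experiment numbers pair the RNA samples, since the design states that each experiment was processed in parallel from its own litters; deviations of tips and lung correlated at 0.0452 across probe sets. Alternatives were other scalings, offsets, filters and floors, no trend, a replicate block, single arrays and leaving out each RNA.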

Additional observations from a re-analysis of the deposited data

Results flagged for a closer look

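In 114 groups of 4 arrays of a member probe set, 2 had an array far from the others, and chance alone sets apart about 1 group in 20. Csnk2a1, with the probe set that differed by -0.51, had 1072 on array 2 of tips in experiment 2. The other tip arrays had 279.9 to 339.1, all under background. With its untested probe set, Csnk2a1 had 321 on array 1 of lung in experiment 1, where the other lung arrays had 102.1 to 129.8. That probe set was under background on every array.

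The experiments pointed in opposite directions, on every array, for 3 members, and the difference between experiments was not tested. Ppp2r5d differed by -0.71 in experiment 1 and 0.35 in experiment 2. No tip array of Ppp2r5d exceeded background, and its lung arrays of experiment 2, at 279 and 185, did not either. The difference of 0.35 therefore compares background values only, and nothing is read from its direction. Ppp1r18 differed by -0.54 in experiment 1 and 0.74 in experiment 2. Csnk2a2, with the probe set that did not pass, differed by -1.38 in experiment 1 and 1.21 in experiment 2. Its tip arrays of experiment 1 were under background.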

How the results depend on the processing

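Against 12 members higher and 8 lower, 3 were higher with quantile normalisation, 2 with median centring, 7 with no filter, 2 with array 1 of each RNA, and 2 with a floor at the highest background, where 5 were lower. Over all probe sets 2106 passed, 1229 with array 1 of each RNA and 826 with that floor. Leaving out 1 RNA gave 2 to 15 higher and 2 to 11 lower members and 349 to 3324 probe sets in all; the lone sample is then assumed to vary like the other group. With experiment as a replicate block, 12 members were higher and 8 lower, 2452 probe sets passed, and no member call changed, though Cry1 among the related genes then passed. Under the other scalings 7 of the 8 lower calls, all but Ppp3ca, held throughout, and each of the 10 higher calls other than Ppp4c and Csnk1e was lost under at least 1. The median log2 difference of all probe sets was 0.35, but 0.03 with quantile normalisation, -0.19 with median centring and 0.06 with cyclic loess. Only members that had not passed changed sign, and the cause was not tested. Csnk1d gave 0.01 with cyclic loess and 0.12 with array 2. Csnk2a2 gave 0.00069 with an offset of 500, 0.35 with array 2, and 0.20 and 0.30 with the highest and next highest floors. Ppm1m gave -0.07 with median centring and -0.07 with cyclic loess. Ppp1r18 gave -0.44 with median centring, Ppp1r1a 0.19 with array 1, Ppp1r2 0.01 with the highest floor, and Ppp1r7 0.11 and Ppp2r1b 0.23 with array 2. When an RNA was left out, values spanned -0.76 to 0.33 for Csnk2a1, -1.08 to 0.90 for Csnk2a2, -0.10 to 1.04 for Ppm1m, -0.15 to 1.70 for Ppp1r17, -0.33 to 0.52 for Ppp1r18, -0.86 to 0.60 for Ppp1r1a, -1.80 to 0.10 for Ppp1r2, -0.09 to 0.08 for Ppp2r1b and -1.0 to 0.64 for Ppp2r5d. Signal near background limits the tip values of Ppp2ca and Ppp4r2 and the lung values of Ppp4c, Csnk1e, Csnk1g2, Ppm1b and Ppp1r15a.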
